A study of Mus musculus with 8 samples.

Results

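The 10 genes described here are ones that the transcription factor p53 is known to switch on, followed in 8 RNA sequencing libraries of CT26, a mouse colorectal carcinoma line, grown as transplanted tumours or in culture. The genes were chosen by symbol (Cdkn1a, Mdm2, Ccng1, Sesn1, Sesn2, Phlda3, Plk2, Plk3, Btg2 and Gdf15), and all 10 symbols matched 1 Ensembl identifier each among the 56953 of the count table. Transplanted CT26 tumours were treated with mLJZD, an abbreviation that the labels leave unexpanded, or with normal saline. CT26 cultures received 10% serum containing mLJZD or 10% control serum for 48 hours. Each of the 4 groups had 2 libraries, and the labels do not say whether these came from separate animals or cultures, so the p-values measure the spread between libraries, which may be technical. The host of the transplants, the number of animals behind a library and the state of the Trp53 gene in the line are not given in the labels. The title of the series names nobiletin, CHEK1, H3K27 acetylation and CENPM as its subject, while no library is labelled as treated with nobiletin.

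p53 is held at a low level by MDM2, which marks it for destruction. DNA damage and other stresses stabilise p53, which then raises the RNA of genes that stop the cell cycle, of genes that repair or remove the damage, and of Mdm2 itself, so that the response limits itself. Several p53 targets also answer to other signals without p53. Sesn2 and Gdf15 are raised by ATF4 and CHOP, the transcription factors of amino acid shortage and endoplasmic reticulum stress. Plk2, Plk3 and Btg2 were first described as immediate early genes, which serum and growth factors induce within minutes. The levels of 1 target alone therefore do not tell these inputs apart, and the members are set here beside lists of other p53 targets, ATF4 targets, immediate early genes and hypoxia genes.

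The stretches upstream of the start sites can be read for letter patterns tied to some of these inputs. The 250 bases before each annotated start, taken from RefSeq on build GRCm38.p6, gave 13 windows for the 10 genes. They were searched on both strands for the p53 decamer, for the cyclic AMP response element TGACGTCA, bound by the CREB and ATF family, for the AP-1 site TGANTCA, for the amino acid response core TGATGNAA and for the CArG box of serum response factor. Capitals mark the matches: p53 decamers in Cdkn1a and Mdm2, and the cyclic AMP response element in Plk2 and Btg2. No matches overlapped. The 4 windows shown are the upstream start of Cdkn1a, the Mdm2 window with 1 decamer, and both windows with a cyclic AMP response element. That of Cdkn1a held the only pair of exact p53 decamers among the members.
Cdkn1a, chr17:29090729-29090978, plus strand: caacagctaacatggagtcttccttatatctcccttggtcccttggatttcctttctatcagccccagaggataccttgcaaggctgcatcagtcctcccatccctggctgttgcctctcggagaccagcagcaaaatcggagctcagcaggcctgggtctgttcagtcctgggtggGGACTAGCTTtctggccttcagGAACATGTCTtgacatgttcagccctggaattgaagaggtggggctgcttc
Mdm2, chr10:117710759-117711008, minus strand: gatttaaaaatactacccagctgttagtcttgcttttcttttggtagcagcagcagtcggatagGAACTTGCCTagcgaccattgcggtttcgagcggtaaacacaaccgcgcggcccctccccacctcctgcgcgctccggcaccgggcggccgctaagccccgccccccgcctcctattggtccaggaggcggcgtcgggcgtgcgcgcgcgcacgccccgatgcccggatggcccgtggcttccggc
Plk2, chr13:110394794-110395043, plus strand: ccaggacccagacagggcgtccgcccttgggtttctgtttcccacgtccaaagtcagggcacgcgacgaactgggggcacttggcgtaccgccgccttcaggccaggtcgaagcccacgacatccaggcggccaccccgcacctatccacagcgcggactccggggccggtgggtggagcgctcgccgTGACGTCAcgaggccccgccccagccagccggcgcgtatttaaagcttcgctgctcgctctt
Btg2, chr1:134079156-134079405, minus strand: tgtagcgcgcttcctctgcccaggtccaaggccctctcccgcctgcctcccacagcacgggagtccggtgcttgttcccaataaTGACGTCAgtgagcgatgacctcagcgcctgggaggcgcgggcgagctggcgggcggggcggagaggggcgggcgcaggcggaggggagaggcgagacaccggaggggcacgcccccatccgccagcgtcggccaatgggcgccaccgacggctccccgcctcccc

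At the upstream start of Cdkn1a the decamers GGACTAGCTT and GAACATGTCT lay at -73 to -64 and at -51 to -42 from the start site. The bases directly after GAACATGTCT, tgacatgttc, differ from the decamer pattern in the first letter only. Such near matches were not searched for and are not marked. A pair of decamers at most 13 bases apart was present in 0.064% of 32807 promoter windows of this length. A single decamer was present in 7.13% of windows and in 4 of the 13 member windows, namely the upstream start of Cdkn1a, Mdm2, Ccng1 and 1 of the 2 starts of Sesn1. The cyclic AMP response element lay at -62 to -55 in Plk2 and at -166 to -159 in Btg2, and 1.55% of all windows held it. The AP-1 site (6.75% of all windows), the amino acid response core (3.45%) and the CArG box (1.47%) matched none of the 13 windows. Sesn2, Phlda3, Plk3 and Gdf15 held none of the searched letters in these windows, which says nothing about sites elsewhere. These matches are letters and not binding sites.

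Library totals ran from 16594912 counts in an mLJZD tumour library to 29363861 in an mLJZD culture library. Levels are given as counts per 1000000 counts of the library total (CPM), and fold changes come from edgeR with its own scaling. Of the members, 9 passed the filter on low counts in the comparisons of 2 groups. Gdf15, a secreted stress cytokine, did not, with 13 and 6 counts in mLJZD tumours, 5 and 8 counts in saline tumours, 5 and 4 counts in mLJZD cultures and 4 and 23 counts in control cultures. Its highest value was thus in 1 of the control cultures, and its libraries overlapped in both treatment comparisons. Exons of Cdkn1a and Plk3 overlap another annotated gene on the opposite strand over 273 and 84 bases, and those other genes had at most 22 and 12 counts in any library.

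Levels can be compared between genes only per length, in TPM, the length-scaled unit, over the longest annotated transcript. On that scale Phlda3 (393 ± 0.22 TPM, SD, n = 2) and Cdkn1a (255 ± 17.0 TPM) were the highest members in control cultures, followed by Ccng1 (110.4 ± 1.58), Plk2 (107 ± 4.53) and Mdm2 (104 ± 2.91), whose neighbouring values were close to their spread. Plk3 (88.5 ± 6.88) and Sesn2 (57.8 ± 3.58) came next, and Btg2 (5.97 ± 0.28) and Sesn1 (3.42 ± 0.57) were far lower. Saline tumours had Cdkn1a on top (232 ± 6.56 TPM) before Phlda3 (212 ± 5.06), Mdm2 (101 ± 1.22), Ccng1 (91.1 ± 3.32) and Plk2 (70.6 ± 0.15). Their Sesn2 (22.7 ± 1.13), Plk3 (20.5 ± 1.44), Sesn1 (17.6 ± 2.18) and Btg2 (12.99 ± 0.48) lay within 10 TPM of each other, and Gdf15 was under 1 TPM in the mean of every group.

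**Figure D1:**
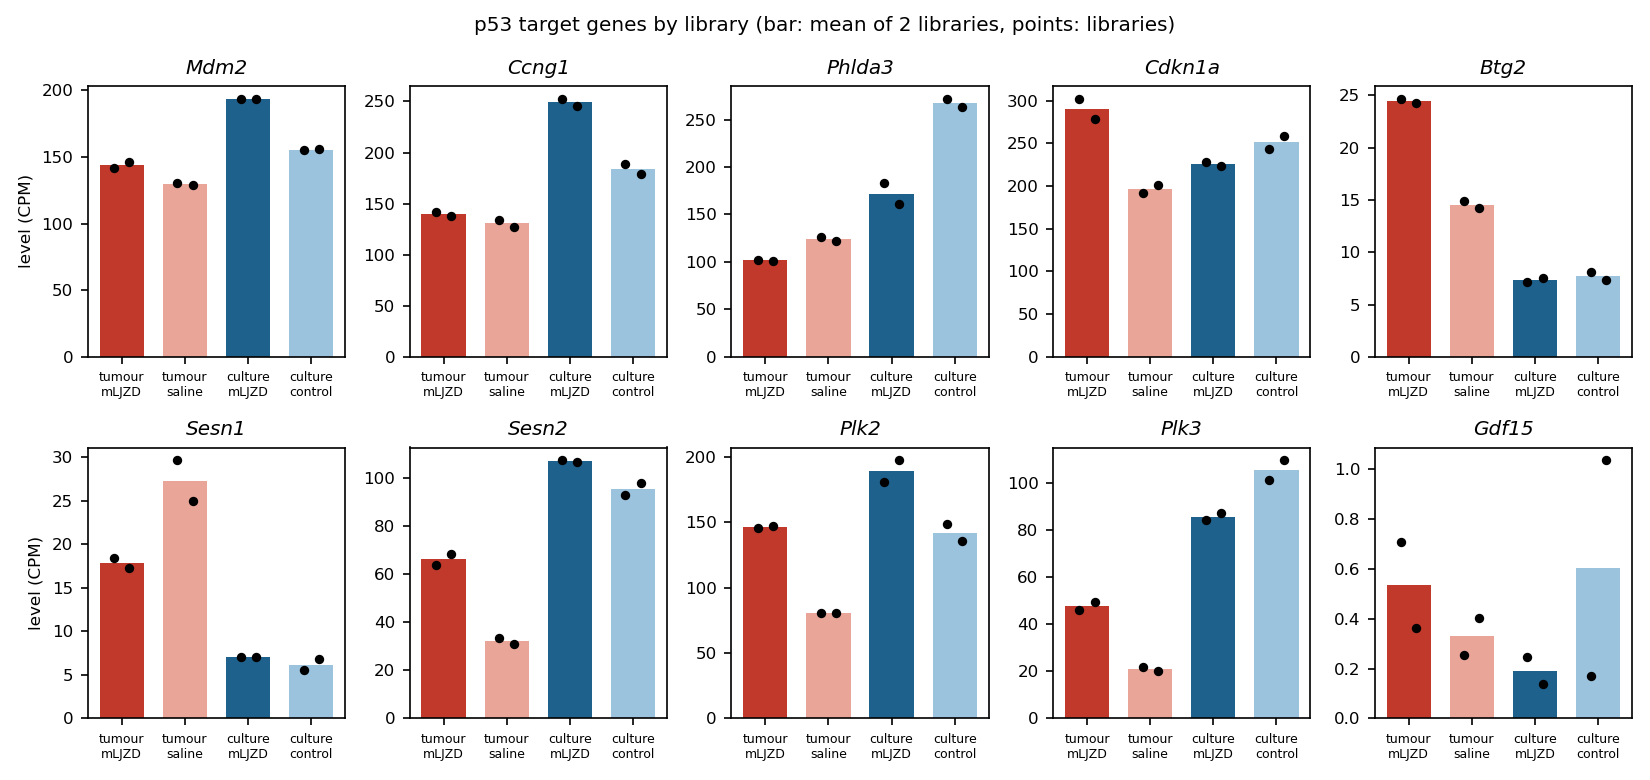
Level of each of the 10 p53 target genes in CPM (vertical axis, from 0, its own scale per gene) in mLJZD tumours, saline tumours, mLJZD cultures and control cultures; bars are means of 2 libraries and points are the libraries. Plk3, Sesn2, Plk2, Btg2 and Cdkn1a were higher in both mLJZD tumour libraries than in both saline libraries, while Gdf15 stayed at about 1 CPM or lower everywhere.

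In tumours, Plk3, Sesn2, Plk2, Btg2 and Cdkn1a rose by between 0.59 and 1.22 on the log2 scale, Mdm2 rose by 0.18, and Sesn1 and Phlda3 fell. Of the 9 tested members 6 rose and 2 fell, against 15.4% of all 15417 tested genes higher and 16.0% lower at an edgeR adjusted p under 0.05. The median log2 fold change of the 9 was 0.59, and that of all tested genes was 0.00092. Markers of several cell types differed between the same tumours: the summed B and plasma cell markers stood at 344 to 379 CPM in mLJZD tumours and 47.8 to 49.1 CPM in saline tumours. Erythroid markers summed to 43.7 to 47.0 CPM in mLJZD tumours and 18.2 to 22.2 CPM in saline tumours, and macrophage markers to 2464 to 2568 CPM in mLJZD tumours and 2688 to 2749 CPM in saline tumours. Epithelial markers summed to 7.05 to 7.80 CPM in mLJZD tumours and 22.6 to 23.1 CPM in saline tumours. CT26 cultures hold them too, at 30.7 to 33.4 CPM in mLJZD cultures and 33.7 to 42.1 CPM in control cultures. Of the markers called, 4 of 7 B and plasma cell, 5 of 5 erythroid and 2 of 10 macrophage ones rose, and 3 macrophage and 2 of 3 epithelial ones fell. Of 8 fibroblast markers 3 rose and 1 fell, of 8 T cell markers 1 fell, and of 8 endothelial markers none was called. Fibroblast markers summed to 3643 to 3724 CPM in mLJZD tumours and 3297 to 3311 CPM in saline tumours. They also stood at 1862 to 1998 CPM in control cultures. Neutrophil markers summed to 46.3 to 50.2 CPM in mLJZD tumours and 39.8 to 41.2 CPM in saline tumours. Of 7 tested, S100a8, S100a9, Cxcr2, Mpo and Elane rose, Mmp9 fell and Csf3r was not called, and Ly6g, Mpo and Elane were at 0 in saline tumours. Their part in the members' values was not tested. A tumour library mixes CT26 cells with host cells, so fewer cells of a type and less RNA per cell cannot be told apart in these values.

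Of the genes that feed back on p53 and on survival signals, Mdm2 rose and Phlda3 fell. Mdm2, which encodes the ligase that removes p53, had 142 and 146 CPM in mLJZD tumours, against 130.4 and 129 CPM in saline tumours. The groups did not overlap, and the log2 fold change was 0.18 (SE 0.06, edgeR adjusted p = 0.0168). The call for Mdm2 ended without any 1 of the 4 libraries (edgeR adjusted p between 0.0624 and 0.140) and with the replicate number as a block (0.0510). Ccng1, which encodes cyclin G1, a partner of the phosphatase that acts on MDM2, had 142 and 137 CPM in mLJZD tumours, against 134 and 128 CPM in saline tumours. Its log2 fold change of 0.13 did not pass (SE 0.06, edgeR adjusted p = 0.0936). Phlda3, a small lipid-binding protein that holds back the kinase AKT, had 102 and 101 CPM in mLJZD tumours, against 126 and 122 CPM in saline tumours. It fell by 0.25 (SE 0.05, edgeR adjusted p = 0.000866), a call that ended without mLJZD replicate 1 (0.0674) or 2 (0.0508).

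The arrest genes rose together. Cdkn1a encodes p21, the inhibitor of cyclin-dependent kinases through which p53 stops cells in G1. It had 302 and 278 CPM in mLJZD tumours, against 192 and 201 CPM in saline tumours, the highest CPM of any member in either group. Its log2 fold change was 0.59 (SE 0.06, edgeR adjusted p = 4.38e-07), and 6.67% of tested genes had a larger one. Btg2, an antiproliferative partner of the deadenylation machinery, had 24.7 and 24.3 CPM in mLJZD tumours, against 14.9 and 14.2 CPM in saline tumours. Both mLJZD libraries were above both saline libraries, and the gene rose by 0.78 (SE 0.10, edgeR adjusted p = 1.54e-05).

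The sestrins went opposite ways. Sesn1 and Sesn2 encode related proteins that restrain the growth kinase mTORC1, Sesn2 as a sensor of leucine. Sesn2 had 63.7 and 68.3 CPM in mLJZD tumours, against 33.2 and 31.1 CPM in saline tumours, and rose by 1.07 (SE 0.06, edgeR adjusted p = 1.28e-09). Sesn1 had 18.4 and 17.2 CPM in mLJZD tumours, against 29.6 and 25.0 CPM in saline tumours, and fell by 0.58 (SE 0.11, edgeR adjusted p = 0.000404). The call for Sesn1 ended without mLJZD replicate 1 (edgeR adjusted p = 0.101) or 2 (0.108). All 10 markers of skeletal muscle fell in the same tumours, with a summed level of 472 to 476 CPM in mLJZD tumours and 2686 to 2712 CPM in saline tumours. In cultures, where that sum was at most 2.69 CPM and Myh4, Myh1, Ckm and Pvalb were at 0 in both groups, Sesn1 stood between 5.55 and 7.08 CPM. The part of muscle RNA in the tumour value of Sesn1 was not tested.

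The stress-responsive polo-like kinases both rose. Plk3, a kinase of the DNA damage and stress responses, had 46.2 and 49.5 CPM in mLJZD tumours, against 21.99 and 20.01 CPM in saline tumours. It rose by 1.22 (SE 0.08, edgeR adjusted p = 3.46e-09), and 2.03% of tested genes had a larger log2 fold change. Plk2, a kinase of centriole duplication and of synapses, had 145 and 147 CPM in mLJZD tumours, against 80.5 and 80.7 CPM in saline tumours. It rose by 0.89 (SE 0.05, edgeR adjusted p = 5.07e-10). Plk3, Sesn2, Plk2, Btg2 and Cdkn1a kept their direction and their call under all 12 alternatives run for tumours, with the largest adjusted p of each between 0.0271 and 0.0424.

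**Figure D2:**
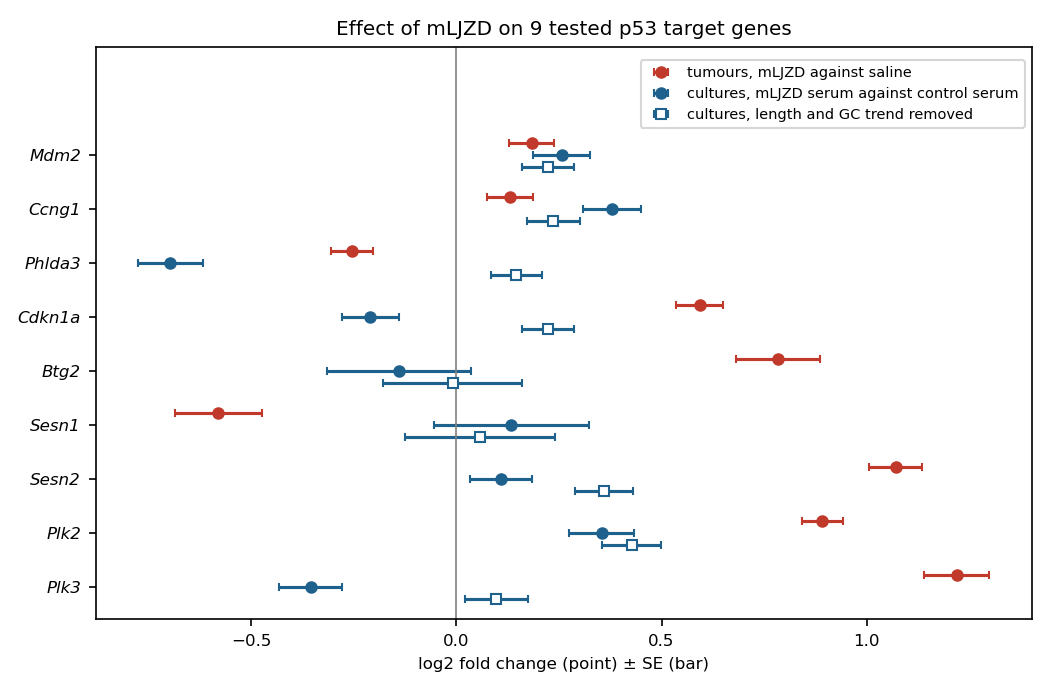
Log2 fold change under mLJZD (horizontal axis) with its standard error for the 9 tested p53 target genes, in tumours (red), in cultures (filled blue) and in cultures with the trend along transcript length and GC content removed (open blue). Plk3, Sesn2, Plk2 and Btg2 stand apart in tumours, and the culture values of Phlda3, Cdkn1a and Plk3 change sign once the trend is removed.

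The list of other p53 targets covers cell death, repair and metabolism. Of its 25 tested genes 5 rose, 2 fell and 18 were not called in tumours, beside 15.4% higher and 16.0% lower over all tested genes, and the median log2 fold change was -0.05. Among the called genes the largest values were those of Pmaip1, which encodes the death protein NOXA (0.86, SE 0.21, edgeR adjusted p = 0.00420), Pidd1, a scaffold of caspase-2 (-0.62, SE 0.12), Trp53inp1 (0.44, SE 0.11) and the receptor gene Eda2r (0.31, SE 0.09). The rises numbered 2 with DESeq2, 0 without mLJZD replicate 1, 1 without mLJZD replicate 2 and 2 without saline replicate 2. The falls numbered 0 without either mLJZD library and 1 with DESeq2 or without saline replicate 2. Bax, a death gene, had 59.3 ± 1.03 CPM in mLJZD tumours and 55.7 ± 0.98 CPM in saline tumours (SD, n = 2) and was among the 18 not called (log2 0.12, SE 0.06, edgeR adjusted p = 0.119). Bbc3, another death gene, was among the 5 rises (log2 0.24, SE 0.09, edgeR adjusted p = 0.0488). DESeq2 did not call it (DESeq2 adjusted p = 0.182).

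Many genes on the lists of the other inputs rose in the same tumours. Of 21 tested identifiers of ATF4 targets 16 rose and 1 fell (median 0.29), among them Chac1, a glutathione-degrading enzyme (1.72, SE 0.08), Trib3, a pseudokinase that restrains the pathway (1.24, SE 0.06), Ddit3, which encodes CHOP (1.08, SE 0.06), the factor gene Atf3 (1.53, SE 0.15) and Atf4 itself (0.32, SE 0.05). The count of rises was 7 without mLJZD replicate 1, and the count of falls was 0 without any 1 library. Among the members, Sesn2 belongs to this branch as well. Of 24 immediate early genes 23 rose and none fell (median 0.62); Btg2, Plk2 and Plk3 were described as such genes too. The list gave Egr1 at 1.43 (SE 0.04), Ccn1 at 1.35 (SE 0.06), Dusp1 at 1.22 (SE 0.06) and Arc at 1.17 (SE 0.33). Of 17 identifiers of hypoxia genes 16 rose and none fell (median 0.84), led by Car9 (2.92, SE 0.14), Slc2a1 (1.31, SE 0.05), Egln3 (1.22, SE 0.16) and Ankrd37 (1.19, SE 0.16). Each list is set against the 15.4% of all tested genes that rose, and the lists were chosen with earlier results of these data known.

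Trp53 and most genes that act on p53 were lower in the same tumours. Of 14 regulators tested 9 fell and none rose (median -0.32), against 16.0% of all tested genes lower and 15.4% higher. Trp53 itself stood at 154 ± 4.46 CPM in mLJZD tumours and 183 ± 6.00 CPM in saline tumours (SD, n = 2), lower by the test (log2 -0.22, SE 0.06, edgeR adjusted p = 0.00582). Mdm4, the partner of MDM2 that blocks p53, fell by 0.38 (SE 0.07). The kinase gene Hipk2 (-0.57, SE 0.08), Trp53bp1 (-0.40, SE 0.06) and Chek1 (-0.36, SE 0.10) fell as well. The count of falls was 2 without mLJZD replicate 1 and 3 without mLJZD replicate 2. Of 21 cell-cycle genes that p53 lowers through p21 and the DREAM complex, 14 fell and none rose (median -0.21), against the same 16.0% and 15.4%, including Mki67 (-0.38, SE 0.04), Top2a (-0.37, SE 0.04), Ccna2 (-0.37, SE 0.05) and Plk1 (-0.35, SE 0.05). That count was 5 without either mLJZD library. RNA of Trp53 does not measure the p53 protein, which is mainly controlled after translation.

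**Figure D3:**
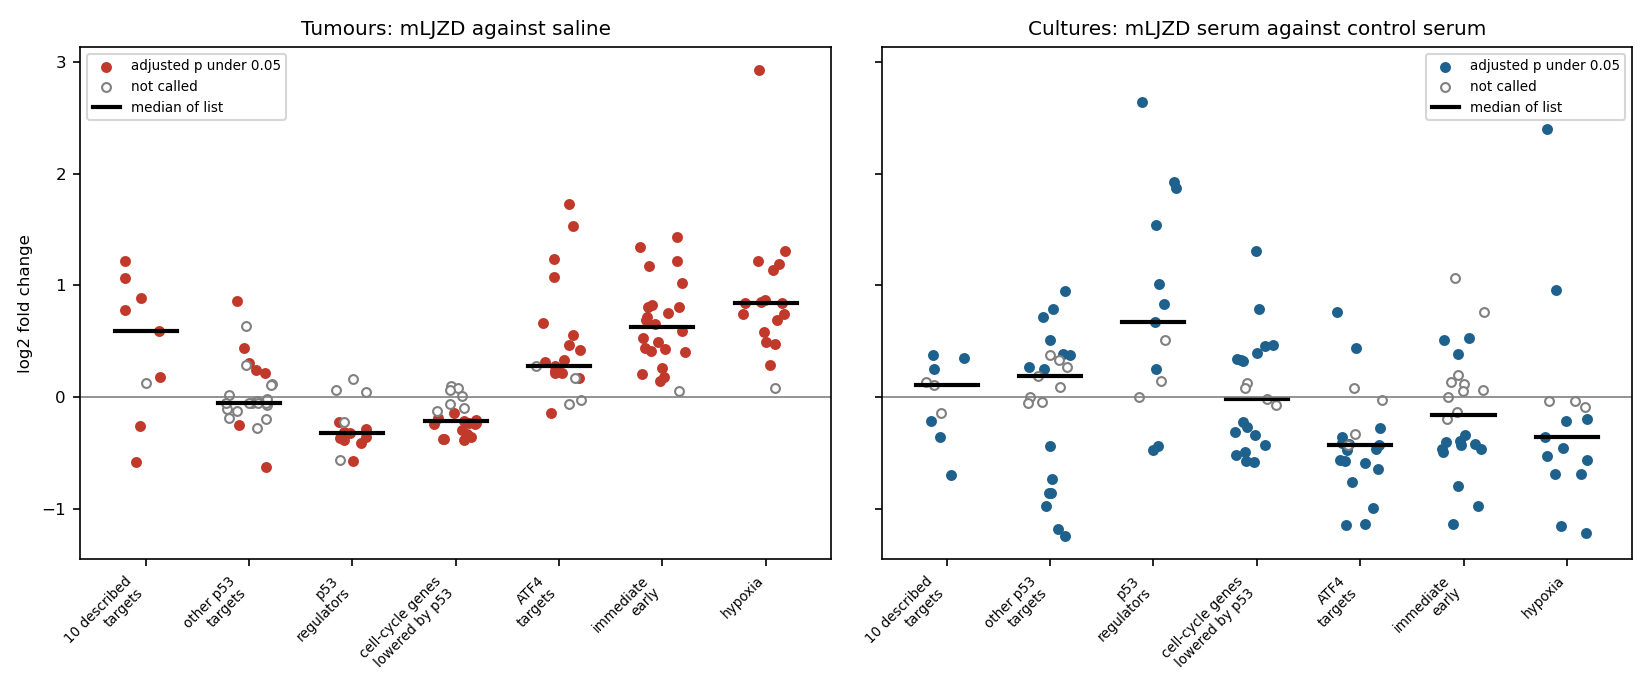
Log2 fold change (vertical axis) of every tested gene of 7 lists in tumours (left) and in cultures (right); filled points passed an edgeR adjusted p under 0.05, open points did not, and bars are list medians. In tumours the medians were 0.59 for the 9 tested members, -0.05 for other p53 targets, 0.29 for ATF4 targets, 0.62 for immediate early and 0.84 for hypoxia genes; in cultures the median of the members was 0.11.

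In cultures the members split without a common direction. Plk2, Ccng1 and Mdm2 rose, Phlda3, Plk3 and Cdkn1a fell, and Sesn1, Sesn2 and Btg2 were not called. The 3 rises and 3 falls of 9 stand against 28.8% of all 13299 tested genes higher and 26.6% lower (edgeR adjusted p under 0.05), and the median of the members was 0.11 against -0.01 over all tested genes. Fold changes in these cultures ran along transcript length, with a median of -0.76 for protein-coding transcripts under 1000 bases and 1.00 for those over 8000 bases. The members that fell have the shortest transcripts among the 9, with Phlda3 at 1435, Cdkn1a at 2080 and Plk3 at 2512 bases. With the trend in length and GC content removed, 5 members rose and none fell, against 24.1% of genes higher and 14.6% lower. Removal was not complete: the medians were then -0.04 under 1000 bases and 0.16 over 8000 bases. The share of rises among all calls was 62.2% after removal and 51.9% before it. Removal also shifted the median of all genes by 0.07, to 0.08, and the median of the members was then 0.22.

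**Figure D4:**
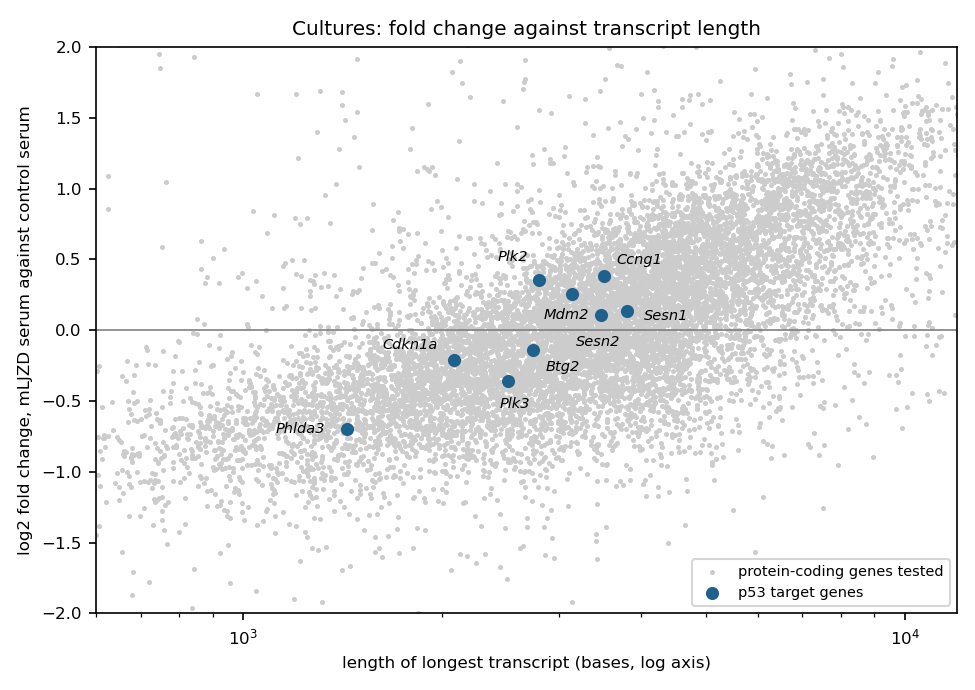
Log2 fold change in cultures, mLJZD serum against control serum (vertical axis), against the length of the longest transcript in bases (horizontal log axis) for 11180 protein-coding genes tested (grey) and the 9 tested p53 target genes (blue); 267 grey genes lie outside the plotted window. Phlda3, Cdkn1a and Plk3, the members of shortest transcript, lie below 0 within the cloud of genes of like length.

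Mdm2 and Ccng1, which belong to the feedback on p53, rose in cultures with either treatment of the trend. Mdm2 had 193 and 194 CPM in mLJZD cultures, against 155 and 156 CPM in control cultures. Its log2 fold change was 0.26 (SE 0.07, edgeR adjusted p = 0.00589), and 0.22 (SE 0.06, edgeR adjusted p = 0.0115) after removal; the call ended with upper-quartile scaling (0.14, edgeR adjusted p = 0.0969), which shifts the median of all genes by -0.11. Ccng1 had 253 and 246 CPM in mLJZD cultures, against 189 and 179 CPM in control cultures, the highest CPM of any member in the mLJZD cultures. It rose by 0.38 (SE 0.07, edgeR adjusted p = 0.000397), and by 0.24 (SE 0.07, edgeR adjusted p = 0.0111) after removal. Phlda3 had 183 and 161 CPM in mLJZD cultures, against 272 and 263 CPM in control cultures, and fell by 0.70 (SE 0.08, edgeR adjusted p = 4.14e-06). After removal its value was 0.15 and was not called (SE 0.06, edgeR adjusted p = 0.0791).

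The direction of Cdkn1a in cultures depended on the scale. It had 229 and 223 CPM in mLJZD cultures, against 243 and 259 CPM in control cultures, and fell by 0.21 (SE 0.07, edgeR adjusted p = 0.0204). With the trend removed it rose by 0.22 (SE 0.06, edgeR adjusted p = 0.0116). The fall was not called with library totals only (edgeR adjusted p = 0.0902), without control replicate 2 (0.142) or without mLJZD replicate 2 (0.0837). Btg2 was low in all 4 culture libraries, with 7.14 and 7.53 CPM in mLJZD cultures and 8.15 and 7.39 CPM in control cultures, which overlap. Its log2 fold change of -0.14 was not called (SE 0.17, edgeR adjusted p = 0.528).

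Among the sestrins and kinases, Plk2 rose in cultures with either treatment of the trend. Sesn2 had 107 and 106 CPM in mLJZD cultures, against 92.6 and 97.9 CPM in control cultures. Its log2 fold change of 0.11 was not called (SE 0.08, edgeR adjusted p = 0.242), and was 0.36 and called with the trend removed (SE 0.07, edgeR adjusted p = 0.00116). Sesn1 had 7.00 and 7.08 CPM in mLJZD cultures and 5.55 and 6.80 CPM in control cultures, and the log2 difference of 0.13 was not called (SE 0.19, edgeR adjusted p = 0.579). Plk2 had 181 and 198 CPM in mLJZD cultures, against 149 and 136 CPM in control cultures. It rose by 0.35 (SE 0.08, edgeR adjusted p = 0.00158), and by 0.43 (SE 0.07, edgeR adjusted p = 0.000405) after removal. Plk3 had 84.1 and 87.2 CPM in mLJZD cultures, against 101 and 109 CPM in control cultures, and fell by 0.36 (SE 0.08, edgeR adjusted p = 0.00127). After removal its value was 0.10 and was not called (SE 0.08, edgeR adjusted p = 0.350).

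The lists around the members changed in cultures as well, and falls of ATF4 targets outnumbered rises. Over all tested genes 28.8% were higher and 26.6% lower (edgeR adjusted p under 0.05). With the trend removed 24.1% were higher and 14.6% lower. Of the genes named below, Slc7a11, Jund, Ier2, Ankrd37 and Atf4 were called before removal of the trend and not after it. Of 21 tested ATF4 targets 15 fell and 2 rose (median -0.43), and 9 fell and 2 rose after removal of the trend (median -0.20). Ddit3 fell by 1.142 (SE 0.07; -0.63 after removal), Cebpb by 1.13 (SE 0.14; -0.27 after removal) and Eif4ebp1 by 0.99 (SE 0.08; -0.74 after removal), while the cystine carrier gene Slc7a11 rose by 0.76 (SE 0.11; -0.19 after removal). Atf4 itself fell by 0.42 (SE 0.08, edgeR adjusted p = 0.000302) and was not called after removal (0.05, edgeR adjusted p = 0.556), and Atf3 was not tested, with 2 and 1 counts in mLJZD cultures and 0 and 3 counts in control cultures. Of 24 immediate early genes 11 fell and 3 rose, and 1 fell and 8 rose after removal, with the median at -0.16 before and 0.19 after it. There Klf2 (-1.13, SE 0.16; -0.43 after removal), Jund (-0.97, SE 0.09; -0.17 after removal) and Ier2 (-0.79, SE 0.11; -0.03 after removal) fell, while Fosb rose by 0.53 (SE 0.15; 0.65 after removal). Of 15 hypoxia identifiers 10 fell and 2 rose (median -0.35), and 5 fell and 3 rose after removal (1 rose before removal without control replicate 1 or without mLJZD replicate 2), with Ankrd37 at -1.21 (SE 0.27; -0.55 after removal), Car9 at -1.15 (SE 0.13; -0.71 after removal), Ldha at -0.69 (SE 0.08; -0.30 after removal) and Hk2 at 0.96 (SE 0.08; 0.65 after removal).

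Of 23 other p53 targets tested in cultures, 8 rose and 7 fell (median 0.19), beside 28.8% higher and 26.6% lower over all tested genes. With the trend removed 3 rose and 3 fell, against 24.1% higher and 14.6% lower over all tested genes. The death genes Bbc3, which encodes PUMA (-1.18, SE 0.14; -0.39 after removal), and Bax (-0.97, SE 0.08; 0.01 after removal) fell before removal and were not called after it. Dcxr did likewise (-1.24, SE 0.31; -0.30 after removal). Rrm2b, the p53-induced subunit of ribonucleotide reductase, rose by 0.95 (SE 0.11) and by 0.60 after removal (edgeR adjusted p = 0.000482). Pmaip1 and Perp were listed at 0 counts in all 4 culture libraries. Trp53 fell to 132 ± 6.30 CPM in mLJZD cultures, against 172 ± 5.03 CPM in control cultures (SD, n = 2; log2 -0.43, SE 0.07; -0.28 after removal, edgeR adjusted p = 0.00440). Mdm4 rose by 0.83 (SE 0.08), and was not called after removal (0.10, edgeR adjusted p = 0.291). Of the regulators as a whole 8 of 13 rose and 2 fell, 5 rose and 3 fell after removal, with the DNA damage kinase genes Atm (2.64, SE 0.11; 1.67 after removal) and Atr (1.54, SE 0.10; 0.68 after removal), Hipk2 (1.92, SE 0.09; 1.36 after removal) and the acetyltransferase gene Ep300 (1.87, SE 0.09; 1.07 after removal) among the rises. The cell-cycle genes of the DREAM list gave 8 rises and 9 falls of 21, and 9 rises and 4 falls after removal. The proliferation marker Mki67 stood at 1.31 (SE 0.07, and 0.36 after removal) and Top2a at 0.79 (SE 0.07, and 0.35 after removal). Ccnb2 stood at -0.58 (SE 0.08) and was not called after removal (-0.19, edgeR adjusted p = 0.0583). The mitotic kinase Cdk1 stood at -0.57 (SE 0.08, and -0.80 after removal).

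Without mLJZD, 7 members were lower in saline tumours than in control cultures and 2 were higher. Over all 15332 tested genes 35.7% were lower and 44.9% higher, so both shares of calls are large (edgeR adjusted p under 0.05). The largest differences were those of Plk3 (-2.49, SE 0.07), Sesn2 (-1.73, SE 0.06), Phlda3 (-1.27, SE 0.05) and Plk2 (-0.98, SE 0.06), followed by Ccng1 (-0.66, SE 0.05), Cdkn1a (-0.51, SE 0.05) and Mdm2 (-0.43, SE 0.05). Sesn1 was 1.98 higher in tumours (SE 0.14) and Btg2 0.74 higher (SE 0.13). With the length and GC trend removed Phlda3 stood at -0.53, while Plk2 stayed between -1.08 and -0.82 under the alternatives run. The saline and control libraries are those of the treatment comparisons too. All 9 calls and directions held under the 11 alternatives run for this contrast. Trp53 did not differ by the test (-0.07, SE 0.05, edgeR adjusted p = 0.238), while Atf4 (-1.13, SE 0.05) and Ddit3 (-2.75, SE 0.05) were lower in tumours. Mdm4 was 0.46 higher (SE 0.06) and turned to -0.17 with the trend removed (edgeR adjusted p = 0.0160). Atf3 had 96 and 134 counts in saline tumours, against 0 and 3 counts in control cultures. The tumours also hold RNA of host cells that the cultures lack: macrophage markers summed to 2688 to 2749 CPM in saline tumours and to 8.74 to 11.4 CPM in control cultures. The part of host cells in these differences was not tested. Of the 6 epithelial markers checked against the label of a colorectal carcinoma, Epcam and Cdh1 were at 0 in both control cultures and Krt18 was the highest at a mean of 34.9 CPM.

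Tumour and culture comparisons differ in control, form of treatment and mix of cells, which cannot be told apart in the test that follows. The effect of mLJZD differed between tumours and cultures for 7 of the 10 members, tested as an interaction over all 8 libraries. It was higher in tumours for Plk3 (1.66, SE 0.11), Sesn2 (1.05, SE 0.10), Btg2 (1.01, SE 0.18), Cdkn1a (0.89, SE 0.09), Plk2 (0.62, SE 0.10) and Phlda3 (0.53, SE 0.10), and lower for Sesn1 (-0.63, SE 0.20). Over all 16090 tested genes 23.8% were higher and 20.5% lower (edgeR adjusted p under 0.05). With the length and GC trend removed the difference of Phlda3 was -0.15 and not called (edgeR adjusted p = 0.148), and 5 members were higher and 1 lower, against 17.9% of genes higher and 16.1% lower. Mdm2 (0.01, SE 0.08) and Ccng1 (-0.16, SE 0.09) were not called, which does not show that their effects are equal. Ccng1 was called lower with library totals only (-0.34, edgeR adjusted p = 0.00342) and with no filter on low counts (-0.28, 0.0143), settings that shift the median of all genes by -0.17 and -0.12. Gdf15 was tested here but not in the comparisons of 2 groups as reported, and was not called (2.55, SE 1.11, edgeR adjusted p = 0.0738), and 1 library decides its value: it was 3.32 and called without control culture replicate 1 (edgeR adjusted p = 0.0128), and 0.78 without control culture replicate 2 (0.712). Without control culture replicate 1 it also passed the filter and was called lower in the culture comparison (-2.51, edgeR adjusted p = 0.0206) and in the contrast of saline tumours with control cultures (-1.79, 0.0263). The call for Sesn1 ended without saline tumour replicate 1 (-0.51, edgeR adjusted p = 0.102), mLJZD tumour replicate 2 (-0.58, 0.0705) or control culture replicate 1 (-0.51, 0.0653). Among the regulators and stress factors, Ddit3 (2.30, SE 0.09), Atf4 (0.82, SE 0.08) and Trp53 (0.29, SE 0.09) were higher and Mdm4 lower (-1.13, SE 0.12). With the trend removed Ddit3 stood at 1.79, Atf4 at 0.43 and Mdm4 at -0.45, all still called. Atf3 was not called (edgeR adjusted p = 0.319), and Trp53 was not called with the trend removed (0.19, edgeR adjusted p = 0.0993). The lists were chosen with earlier results of these data known. Across them, 16 of 21 ATF4 identifiers, 19 of 24 immediate early genes and 13 of 17 hypoxia identifiers were higher in this contrast. The same held for 6 of 25 other p53 targets and for 23.8% of all tested genes. The counts lower were 1, 0, 2 and 4 in the same order, against 20.5%. Some listed genes, such as Pmaip1 and Atf3, had few or no counts in cultures. With the trend removed the counts higher were 16, 14, 12 and 6 in the same order, against 17.9% of all tested genes. The counts lower were then 0, 0, 1 and 2, against 16.1%.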

How the data were processed

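RNA was measured in 8 libraries, 2 per group. The deposited file holds raw counts for each Ensembl gene, unscaled. The submitters' processing notes name GRCm39, featureCounts 2.0.3, HISAT2 2.2.1, SAMtools 1.14, FastQC 0.12.1 and Trim Galore. The sources used here do not give the annotation release, the strand setting or the handling of reads with several positions. GENCODE M21 gave symbols for 52029 identifiers and their transcript length and GC content. Promoter windows came from RefSeq on GRCm38.p6, and no coordinate was set against the counts.

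The main test was the two-sided quasi-likelihood F test of edgeR 4.0.16 (R 4.3.3), after TMM scaling and filterByExpr. Adjusted p-values (Benjamini-Hochberg) cover every gene tested, and 0.05 was the threshold. A comparison of 2 groups used its 4 libraries, and the interaction used all 8. Standard errors were taken as the size of the log2 fold change over the root of its F statistic. Alternatives were DESeq2 1.42.0, library totals only, upper-quartile scaling, no filter on low counts, 1 fit of all 8 libraries, the replicate number as a block, each library left out, and removal per library of a smooth trend (mgcv 1.9.3) in transcript length and GC content. The test was tried on simulated counts first. Where an arm was left with 1 library, that library was assumed to vary like the other group.

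The members are named in every comparison, with Trp53, Mdm4, Atf4, Ddit3 and Atf3, and up to 4 called genes per list whose groups did not overlap and whose mean reached 1 CPM. Bax and Bbc3 in tumours and Perp were named after their values were seen. Lists are described by counts and medians with no set test. The members and lists were chosen with earlier results of these data known. Replicates of every group differed by more than sampling noise (chi-square of 2.68 to 11.6 per gene).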

Additional observations from a re-analysis of the deposited data

Results flagged for a closer look

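For 7 members the effect of mLJZD differed between tumours and cultures by a test of the difference itself, the edgeR interaction over 8 libraries. Control, form of treatment and mix of cells differ between tumours and cultures as well and cannot be told apart here. The log2 difference, tumours minus cultures, was 1.66 for Plk3 (edgeR adjusted p = 5.02e-09), 1.05 for Sesn2 (3.11e-07), 1.01 for Btg2 (0.000242), 0.89 for Cdkn1a (3.89e-07), 0.62 for Plk2 (5.58e-05), 0.53 for Phlda3 (0.000250) and -0.63 for Sesn1 (0.0160). With the trend in transcript length and GC content removed the values were 1.27 for Plk3, 0.85 for Sesn2, 0.87 for Btg2, 0.53 for Cdkn1a, 0.52 for Plk2, -0.15 for Phlda3 and -0.58 for Sesn1. All but that of Phlda3 remained called after removal.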

How the results depend on the processing

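In tumours the count of called genes was 4835 and ranged from 1087 to 3536 without 1 library, with 1087 without mLJZD replicate 1 and 1974 without mLJZD replicate 2. The members called lower were 2 and ranged from 0 to 2. In cultures, removal of the length and GC trend gave 5 members higher and 0 lower, and turned Cdkn1a to 0.22, Phlda3 to 0.15 and Plk3 to 0.10, while upper-quartile scaling turned Sesn2 to -0.0044. In the interaction the members called lower were 1, with 2 for library totals only and 2 with no filter, and ranged from 0 to 1 without 1 library. There Mdm2, near 0, turned to -0.027 with DESeq2, -0.16 with library totals only, -0.11 with no filter and -0.0011 after trend removal, and without 1 library ranged from -0.0056 to 0.016; Phlda3 turned to -0.15 after trend removal. The cause was not tested. Other scalings moved the median of all genes by -0.11 (upper quartile, cultures), 0.16 (library totals, control contrast), -0.17 (library totals, interaction) and -0.12 (no filter, interaction); with library totals 39.7% of interaction calls were higher, against 53.7%, and with no filter 44.1%. In the control contrast none of the 9 tested members changed its call or direction. Trend removal moved the median of all genes by 0.11 there and by 0.07 in cultures.

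In the labels, same-numbered libraries share only a number. Their deviations correlated at -0.23 across genes in tumours, 0.02 in cultures and -0.0018 in the control contrast. With the replicate block 4461 genes were called in tumours and 7343 in cultures, and among the members the block ended 1 call, Mdm2 in tumours. A crossed pairing, chosen after seeing the data, gave 5411 calls in tumours. Depth limits Gdf15, at 4 to 23 counts per library.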
